A study of Homo sapiens with 17 samples.

Results

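The zinc finger genes of chromosome 19 were described here as the protein-coding RefSeq genes of that chromosome (GRCh38.p14) whose symbol is ZNF followed by digits, with at most 1 letter after them. There were 246 such genes among the 1451 protein-coding genes of the chromosome, beside 1201 other coding genes, and 4 readthrough genes that join a ZNF gene to a neighbour were placed in neither set. A peak belonged to a ZNF gene when its summit lay inside the gene or within 10 kb of it. By this rule 62 of the 208775 peaks in 8 lists lay at ZNF genes of chromosome 19. They formed 37 distinct sites once overlapping peaks of different lists were merged, and they lay near 43 of the 246 genes, while 203 had no peak in any list.

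The peaks come from Flag ChIP-seq in U2OS, a human osteosarcoma cell line, in which doxycycline switched on a Flag-tagged factor through a Tet-on system. Cells received it for 4 days, at 500 ng/ml per the treatment labels. The 8 groups were FOXA1, FOXA2 and FOXA3, each at full length (FL) and with the C-terminal domain deleted (dCTD), together with full-length SOX2 and SOX2 joined to the FOXA2 CTD (SOX2-FOXA2CTD, called the fusion). Each group had 2 replicates, joined by the authors into 1 combined list. All factors were thus made from an induced transgene in the same cell line, and whether a line is 1 clone is not given in the sources used here. The combined lists give no spread between replicates, read depth was not used here, and every interval below covers counting error over peaks only.

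Most ZNF genes of chromosome 19 encode proteins with a row of C2H2 zinc fingers, often behind a KRAB domain, which recruits the corepressor TRIM28 and the H3K9 methyltransferase SETDB1. The genes arose by tandem duplication and stand in clusters, whose 3' exons, which encode the fingers, are known for carrying the heterochromatin mark H3K9me3. ZNF274, itself a member, is known to bind these 3' exons. FOXA proteins and SOX2 are called pioneer factors because they can bind their motifs on nucleosomes, and H3K9me3 domains are known as a barrier to such factors. H3K9me3 was not measured in these lists.

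The 5' ends with peaks in the most lists were those of ZNF17 and ZNF585A, so their promoter sequences are shown first. Each is the RefSeq window of 300 bases, 250 before the gene start and 50 from it, read 5′ to 3′ on the strand of the gene. Capitals mark the stretch from the first to the last summit of the lists that had a peak there, as far as it lies in the window. ZNF17 lies on the plus strand, window chr19:57410911-57411210, with summits of 5 lists (both FOXA3 lists with the same row) from position -27 to position 62 relative to the start. The FOXA2FL summit at position 50 and the FOXA3 summit at position 62 lay just outside the window, so the capitals stop at its end. ZNF585A lies on the minus strand, window chr19:37172646-37172945, with summits of 4 lists from -102 to -60.
ZNF17: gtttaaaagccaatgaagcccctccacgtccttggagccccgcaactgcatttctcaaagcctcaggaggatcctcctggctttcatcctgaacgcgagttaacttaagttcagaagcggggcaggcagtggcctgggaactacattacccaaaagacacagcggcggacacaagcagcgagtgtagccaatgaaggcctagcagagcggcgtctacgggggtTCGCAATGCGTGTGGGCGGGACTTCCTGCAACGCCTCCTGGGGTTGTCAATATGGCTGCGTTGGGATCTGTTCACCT
ZNF585A: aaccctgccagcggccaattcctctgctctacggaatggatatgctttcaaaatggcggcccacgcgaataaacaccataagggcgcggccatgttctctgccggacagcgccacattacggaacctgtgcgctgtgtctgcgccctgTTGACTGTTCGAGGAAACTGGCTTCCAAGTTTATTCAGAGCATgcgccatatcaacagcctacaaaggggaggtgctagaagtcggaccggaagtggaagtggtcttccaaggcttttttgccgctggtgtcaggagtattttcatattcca
Neither window held any of the forkhead letters searched, which were the core word TGTTTAC, its variant TGTTTGC, and the variant TATTTAC, on either strand. ZNF585A held 1 match to the SOX letters searched (the word ACAATGG, or its variant ACAAAGG, on either strand), at position -41. The absence of a match says only that these letters are not in these 300 bases. Other variants of the forkhead and SOX words were not searched, in these or any other windows below.

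Density was lower at ZNF genes than at other coding genes of chromosome 19 in the FOXA1, FOXA2 and SOX2-FOXA2CTD lists, by factors from 3.21 to 6.27 for FOXA1 and FOXA2. ZNF genes and their flanks covered 10.36 Mb and those of the other coding genes 32.79 Mb. In the FOXA1FL list 11 peaks lay at ZNF genes, or 1.06 per Mb, against 199 at other coding genes, or 6.07 per Mb, a ratio of 0.175 (exact 95% interval 0.0860 to 0.320). FOXA1dCTD had 7 peaks against 139, at 0.676 and 4.24 per Mb, a ratio of 0.160 (0.0630 to 0.337). Both FOXA1 lists thus had about the same shortfall, with overlapping intervals. FOXA2FL had 17 peaks against 173, at 1.64 and 5.28 per Mb, a ratio of 0.311 (0.177 to 0.513). FOXA2dCTD also had 17 peaks, against 177, at 1.64 and 5.40 per Mb, a ratio of 0.304 (0.173 to 0.501). The FOXA2 ratios with and without the CTD were nearly equal, and their intervals overlapped those of FOXA1.

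The lists of FOXA3 and SOX2 were shorter and gave wider intervals. FOXA3FL had 4 peaks at ZNF genes against 24, a ratio of 0.528 (0.133 to 1.54), and FOXA3dCTD had 5 against 31, a ratio of 0.511 (0.155 to 1.33). Neither FOXA3 interval excluded equal density. All 4 FOXA3FL peaks at ZNF genes were rows identical to rows of the FOXA3dCTD list, as were all 30 of its peaks on chromosome 19 and 5012 of its 6130 peaks in all, so the FOXA3 lists are no independent measurements of each other here. In every sum over lists below, FOXA3FL is left out and FOXA3 counts once, through FOXA3dCTD, which leaves 58 of the 62 peaks. The SOX2 list of 1375 peaks had none on chromosome 19, which allows up to 0.290 per Mb at ZNF genes (3 counts). SOX2-FOXA2CTD had 1 peak at a ZNF gene against 25 at other coding genes, a ratio of 0.127 (0.00309 to 0.774). That value rests on 1 peak with an IDR of 0.871, where IDR is the irreproducible discovery rate that ranks agreement between replicates. For the fusion, the longer list from its first replicate gave 0.422 (0.223 to 0.740).

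**Figure D1:**
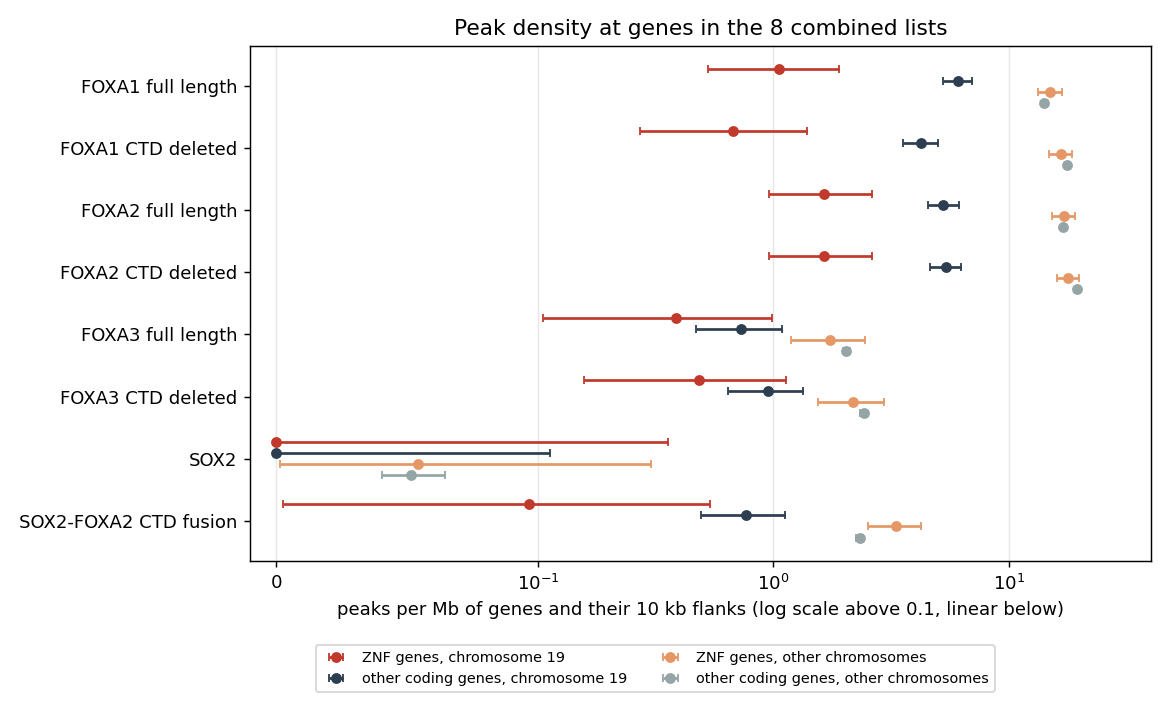
Peaks per Mb of gene territory (genes with 10 kb on each side) in each combined list, on an axis that is logarithmic above 0.1 and linear below it, for 4 gene sets, with exact 95% intervals of the count. In the FOXA1 and FOXA2 lists the ZNF genes of chromosome 19 lie at 0.676 to 1.64 peaks per Mb, below the other coding genes of the chromosome at 4.24 to 6.07, while ZNF genes elsewhere lie beside the other coding genes there.

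Counted by gene, 15 of the 246 ZNF genes (6.10%) had a FOXA1FL summit within 10 kb, against 22.1% of the other coding genes. For FOXA1dCTD it was 8 genes (3.25%) against 14.0%, for FOXA2FL 24 genes (9.76%) against 20.1%, and for FOXA2dCTD 19 genes (7.72%) against 20.3%. Each of these 4 shares was below the background, by 10.39 to 16.05 percentage points. FOXA3FL reached 5 ZNF genes (2.03%) against 2.5% and FOXA3dCTD 7 (2.85%) against 3.25%, both near the background. SOX2 reached 0 of either set (0.0%), and SOX2-FOXA2CTD reached 2 ZNF genes (0.813%) against 3.08%. The gene counts go the same way as the densities although ZNF genes were longer, with a median length of 23.15 kb against 12.69 kb.

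The shortfall was not seen at ZNF genes of other chromosomes. The 263 protein-coding ZNF genes of the other chromosomes, covering 18.44 Mb, had 276 FOXA1FL peaks, 307 FOXA1dCTD peaks, 315 FOXA2FL peaks and 330 FOXA2dCTD peaks. Against the other coding genes of those chromosomes, these gave ratios of 1.06 (0.934 to 1.19), 0.939 (0.837 to 1.05), 1.01 (0.899 to 1.13) and 0.918 (0.821 to 1.02). None of these intervals excluded 1, and none overlapped the interval of the same list at chromosome 19. The ratio of the SOX2-FOXA2CTD list was 1.42 there (1.09 to 1.83), above 1.

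Chromosome 19 as a whole also stood low. Its other coding genes had 4.24 to 6.07 peaks per Mb in the FOXA1 and FOXA2 lists, while coding genes of the other chromosomes had 14.2 to 19.5. In the FOXA1 and FOXA2 lists, other coding genes within 100 kb of a ZNF gene did not share the shortfall of their neighbours. The 200 such genes had 6.70 FOXA1FL peaks per Mb against 5.94 for the 1001 genes farther away, and 5.11 FOXA2FL peaks per Mb against 5.31. For FOXA1dCTD these densities were 3.70 and 4.35, and for FOXA2dCTD 5.11 and 5.46. In these lists the coding neighbours were thus near the density of coding genes farther away, in contrast to the ZNF genes. The other lists had few peaks at these neighbours and lower densities than farther away. FOXA3FL had 0.529 against 0.774 per Mb, FOXA3dCTD 0.529 against 1.03, and SOX2-FOXA2CTD 0.529 against 0.811, each with 3 peaks at the neighbours. SOX2 had none. Stretches without other coding genes are not covered by this comparison, and in the longest cluster the DNA between ZNF genes was also sparse, as given with that cluster.

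Gene ends and gene bodies were then compared, with an end taken as 1 kb to either side of a gene's first or last base, told apart as 5' or 3' for the 216 ZNF genes whose strand the RefSeq promoter table gives. Summed over lists, which share sites, 17 of the 58 peaks lay at 5' ends, 0 at 3' ends, 29 in bodies and 12 in the flanks. At the other coding genes the numbers were 118, 25, 403 and 172. ZNF 5' ends had 41.0 peaks per Mb in this sum and ZNF bodies 4.44, against 74.4 and 18.4 at the other coding genes. The 17 peaks at ZNF 5' ends came from 10 sites, of which those of ZNF17 and ZNF585A were in 4 lists each. Peaks at ZNF genes were thus densest at 5' ends, as they were at other coding genes, and the bodies, which make up 6.528 Mb of the ZNF territory, were sparse.

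In bodies the ratio of ZNF genes to other coding genes was 0.127 in FOXA1FL (0.0338 to 0.333), 0.251 in FOXA1dCTD (0.0896 to 0.572), 0.258 in FOXA2FL (0.101 to 0.553) and 0.318 in FOXA2dCTD (0.141 to 0.629). All 4 intervals lay below 1. At 5' ends the ratios were 0.383 in FOXA1FL (0.0995 to 1.06), 0.660 in FOXA2FL (0.199 to 1.72) and 0.683 in FOXA2dCTD (0.206 to 1.79), from 4, 5 and 5 peaks. These intervals included 1, so these counts showed neither a shortfall at ZNF 5' ends nor equality. Over both ends, including genes of unknown strand, FOXA1FL had 4 peaks against 53, a ratio of 0.319 (0.0837 to 0.865), below 1. FOXA2FL had 0.459 (0.142 to 1.15) and FOXA2dCTD 0.515 (0.159 to 1.30). Whether ends and bodies differ in their shortfall was not tested. FOXA1dCTD had no peak at a ZNF gene end, where the density of other coding genes would give 3.55.

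**Figure D2:**
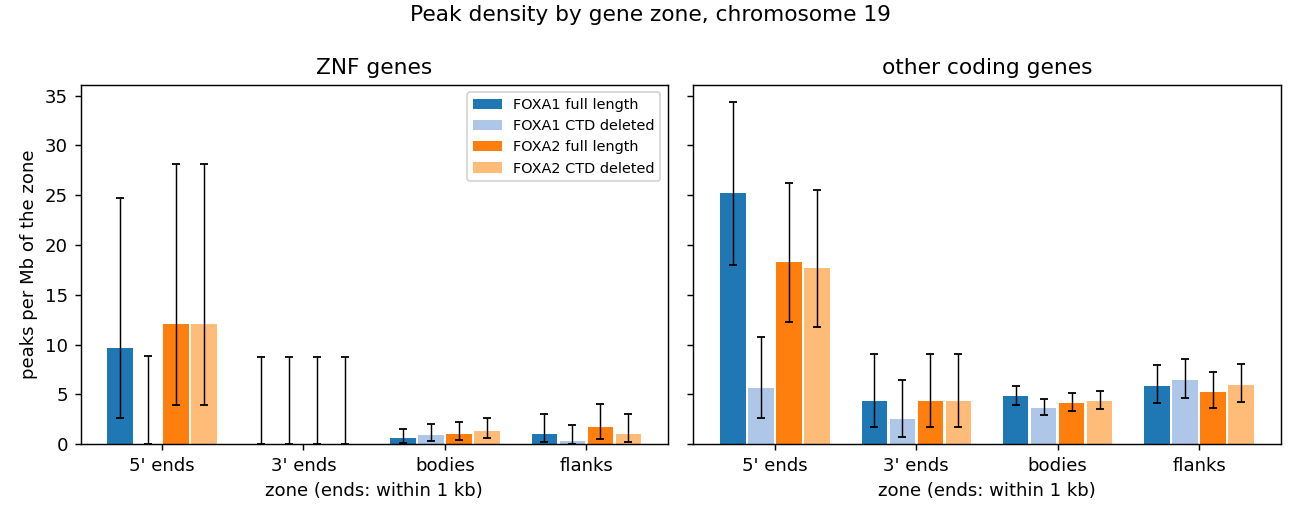
Peaks per Mb at 5' ends, 3' ends, bodies and flanks of ZNF genes (left) and other coding genes (right) of chromosome 19 in the FOXA1 and FOXA2 lists, as bars with exact 95% intervals. ZNF bodies lie at 0.613 to 1.38 peaks per Mb and other bodies at 3.66 to 4.84, while 3' ends of ZNF genes are at 0 in all 4 lists.

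Counted by gene, ends were occupied at 4 ZNF genes in FOXA1FL against 5.25% of other coding genes, at 0 in FOXA1dCTD against 1.42%, at 5 in FOXA2FL (2.03%) against 4.41%, and at 5 in FOXA2dCTD against 4.25%. The numbers were 1 in FOXA3FL against 0.0833%, 2 in FOXA3dCTD against 0.416%, 0 in SOX2 against 0.0% and 1 in SOX2-FOXA2CTD against 1.25%. Within ZNF genes, ends were denser than bodies by a factor of 6.81 in FOXA1FL (1.27 to 36.6) and 4.87 in FOXA2FL (1.22 to 17.8). Of the 5 FOXA2FL end peaks, those at ZNF234, ZNF160 and ZNF579 were weak. The lower −log10 p of both replicates was 1.59 at each, near the lowest of that list at 1.52. In FOXA2dCTD the factor was 3.79 (0.997 to 12.6), and at other coding genes the same 3 lists gave 2.71, 2.73 and 2.33. The intervals at ZNF genes contained those values, so no difference between the gene sets was shown. FOXA1dCTD, with 0 peaks at ends and 6 in bodies, had a factor of 0 (0 to 5.79). With ends taken as 2.5 kb the factor was 8.68 in FOXA1FL (1.65 to 85.6) and 2.89 in FOXA2FL (0.833 to 10.4). For FOXA2dCTD it was 1.65 (0.484 to 5.20) and for FOXA1dCTD 0.413 (0.00899 to 3.41). Only the FOXA1FL interval then lay above 1.

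No combined list had a summit within 1 kb of a ZNF 3' end. Those ends covered only 0.423 Mb, and at the density of 3' ends of other coding genes 1.86 peaks would fall there in FOXA1FL, 1.06 in FOXA1dCTD, 1.86 in FOXA2FL and 1.86 in FOXA2dCTD. A count of 0 allows up to 7.09 per Mb (3 counts), above the 4.39 per Mb at other 3' ends in FOXA2FL, so a shortfall at 3' ends was not detectable in a single list. Summed over lists, which share sites, other 3' ends had 25 peaks, or 15.7 per Mb, against 0 at ZNF 3' ends. Whether 3' ends differ from the rest of the ZNF genes in their shortfall was not tested.

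The genes were unevenly occupied along the chromosome. Of the 246 ZNF genes, 232 stood in 10 clusters of at least 5 genes with gaps of up to 500 kb. The longest cluster runs from ZNF101 to ZNF254, from 19.67 to 24.13 Mb, and holds 37 ZNF genes with 2.23 Mb of territory. It had 0 summits within 10 kb of a ZNF gene in all 8 lists. The density of other coding genes would give 50.5 peaks there, summed over lists. The remaining ZNF territory of the chromosome had 7.13 peaks per Mb in this sum, and other coding genes had 22.7. The 2.25 Mb of the span that lie over 10 kb from a ZNF gene, with 2 other coding genes in the whole span, held 5 peaks, or 2.22 per Mb. Of these, 1 was in FOXA1FL, 1 in FOXA1dCTD, 1 in FOXA2FL and 2 in FOXA2dCTD. This cluster includes ZNF91 and ZNF93, known for repressing SVA and LINE-1 retroelements, and neither had a peak.

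The DNA beside this cluster, 5.08 Mb with no coding gene from ZNF254 to UQCRFS1, held 228 FOXA2FL and 252 FOXA2dCTD peaks. FOXA1FL had 11 peaks there, FOXA1dCTD 7, SOX2-FOXA2CTD 2 and the other 3 lists none. Of chromosome 19, 257 FOXA2FL and 301 FOXA2dCTD peaks lay at neither gene set, and 228 and 252 of them were those in this stretch, so they enter no ratio above. The sequence of the stretch, including any repeats, was not examined here. How reads matching several places were treated is not given, so these peaks cannot be taken as binding to ordinary gene-free DNA.

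A second cluster without a peak within 10 kb of its ZNF genes runs from ZNF414 to ZNF846. It has 13 genes and 0.566 Mb of territory, where 12.8 peaks would fall at the density of other coding genes. The DNA between these genes was not free of peaks, since the whole span of 1.28 Mb held 14 over all 8 lists, FOXA3FL included. The clusters with the highest numbers of occupied genes were ZNF653 to ZNF791, with 8 of 25, and ZNF175 to ZNF331, with 10 of 39. In the cluster at the end of the long arm, ZNF264 to ZNF446, 5 of 43 genes were occupied. The 14 ZNF genes outside clusters had 12 peaks in 1.05 Mb, or 11.4 per Mb summed over lists, and those in clusters 46 peaks in 9.30 Mb, or 4.94 per Mb. Of those 12, 11 lay at ZNF536 and ZNF507 and 1 at ZNF296, so the difference rests on 2 genes.

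**Figure D3:**
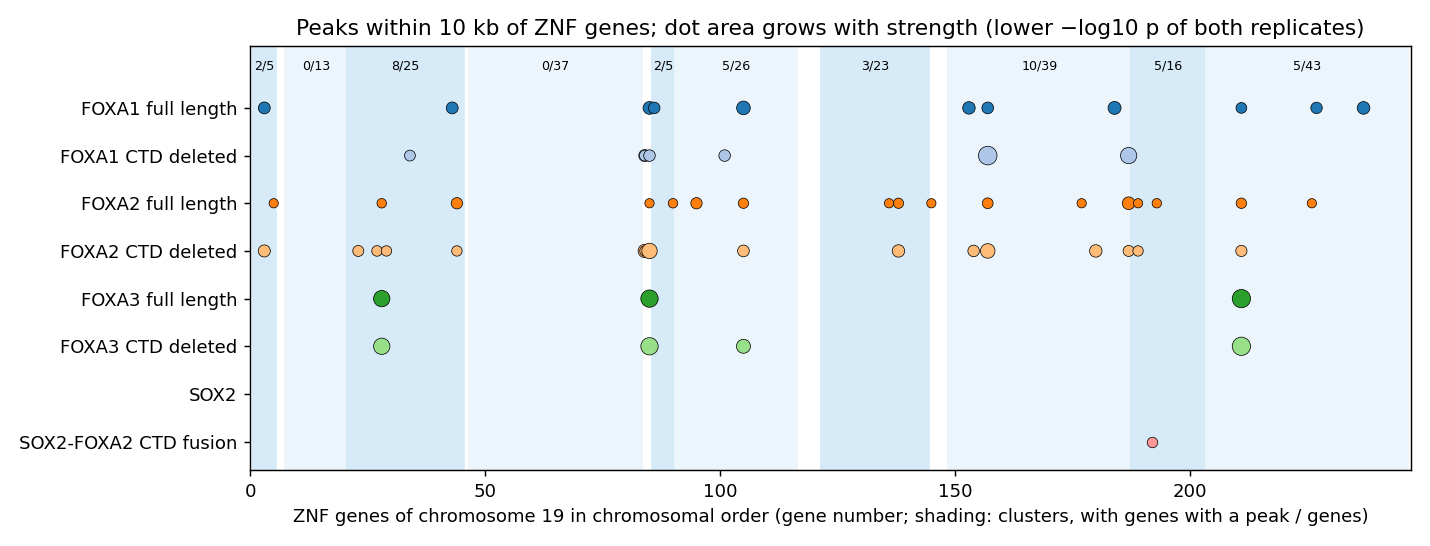
Peaks at ZNF genes of chromosome 19 by list, against the number of the gene in chromosomal order, with dot area growing with peak strength (the lower −log10 p of both replicates) and shaded clusters labelled with genes with a peak over genes. The cluster of 37 genes is empty in every list, and peaks of different lists stack at a few genes.

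The promoters of the empty cluster share sequence. The word of 10 letters found in most of the 216 ZNF windows was TCCAATCAGG, present in 42 (19.4%) and in 0 of the 966 windows of other coding genes of the chromosome. It contains CCAAT, the core of the element bound by NF-Y. On either strand it was in 106 of the 27305 windows of all RefSeq genes (0.388%), 43 of them ZNF windows of chromosome 19. Of the 29 windows from ZNF101 to ZNF254, 26 (89.7%) held it. The most frequent word of 15 letters, TCTTCTGTCACTCAG, was in 16 ZNF windows, 14 of them from that cluster, and in 17 of all windows. Both words were picked from these sequences for being frequent. Windows of ZNF91, on the minus strand at chr19:23395422-23395721, and ZNF93, on the plus strand at chr19:19900696-19900995, are shown for the cluster. ZNF564, on the minus strand at chr19:12551433-12551732, is shown because it had the only window with the shorter word and a summit. Capitals mark these 2 words.
ZNF91: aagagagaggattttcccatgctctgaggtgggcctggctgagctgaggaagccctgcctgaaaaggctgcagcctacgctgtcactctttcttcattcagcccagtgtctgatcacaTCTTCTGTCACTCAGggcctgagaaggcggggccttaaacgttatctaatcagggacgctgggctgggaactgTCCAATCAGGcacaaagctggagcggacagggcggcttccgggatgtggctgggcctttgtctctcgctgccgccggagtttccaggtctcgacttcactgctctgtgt
ZNF93: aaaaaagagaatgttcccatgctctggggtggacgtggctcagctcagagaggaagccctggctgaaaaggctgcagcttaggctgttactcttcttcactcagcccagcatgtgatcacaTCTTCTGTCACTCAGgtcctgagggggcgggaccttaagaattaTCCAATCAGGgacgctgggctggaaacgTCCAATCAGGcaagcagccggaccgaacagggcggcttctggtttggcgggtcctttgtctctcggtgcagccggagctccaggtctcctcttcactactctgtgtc
ZNF564: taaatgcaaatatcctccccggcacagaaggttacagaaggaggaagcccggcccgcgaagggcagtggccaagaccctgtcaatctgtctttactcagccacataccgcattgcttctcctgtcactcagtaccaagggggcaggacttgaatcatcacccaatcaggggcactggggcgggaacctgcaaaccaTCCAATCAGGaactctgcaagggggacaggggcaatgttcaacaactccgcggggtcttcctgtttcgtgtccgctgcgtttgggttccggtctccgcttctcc
ZNF91 and ZNF93 carry both words, and ZNF93 has the shorter one at 2 places. The ZNF564 window holds the shorter word at position -54 and a FOXA1FL summit at -132, with −log10 p of 3.45 and 4.38. Of the 42 genes with the shorter word 26 belong to the empty cluster. Of the 16 outside it, 5 had a peak within 10 kb in any list (31.2%). Among all 187 ZNF genes with a window outside the cluster, those 16 included, 41 had one (21.9%). With 16 genes these shares show neither fewer nor more peaks with the word.

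SOX letters were more frequent in the promoters of the empty cluster than in other ZNF promoters, and forkhead letters were in too few windows of the cluster to compare. Forkhead letters were in 11 of 216 ZNF windows (5.09%), in 4.76% of windows of other coding genes of the chromosome and in 9.62% of all RefSeq windows. From ZNF101 to ZNF254 they were in 3 of 29 windows, and in 8 of the other 187. SOX letters were in 36 ZNF windows (16.7%), against 4.55% and 8.19%. From ZNF101 to ZNF254, 19 of 29 windows had them (65.5%), against 17 of the other 187 (9.09%). In the cluster the match was to the variant ACAAAGG, read as CCTTTGT, in every such window but that of ZNF493. ZNF493 had the word ACAATGG, read as CCATTGT. The windows of this cluster share sequence, as given above, so they are not independent counts. In 12 of these 19 genes the match began within 20 bases before the start, as in ZNF91 and ZNF93 at position -5. No peak of SOX2 or the fusion lay within 10 kb of any of these 19 genes, in the combined lists or in the lists of the first replicate, but the combined SOX2 list had no peak on the chromosome at all. Among the 5 ZNF windows that held a summit, at ZNF564, ZNF585A, ZNF350, ZNF615 and ZNF17, none had forkhead letters and 1 had SOX letters, too few windows to compare. Median GC content was 59.8% in ZNF windows and 64.0% in windows of other coding genes of the chromosome.

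With FOXA3 counted once, 25 of the 37 sites were in 1 list, 7 in 2, 1 in 3 and 4 in 4. The 12 sites in more than 1 list were 32.4% of the total (Wilson 95% interval 19.6% to 48.5%), against 186 of 401 sites at other coding genes (46.4%, 41.6% to 51.3%). The intervals overlap. Strength is given below as the −log10 p the authors list for each replicate, which the files do not number.

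ZNF17, a KRAB zinc finger gene, shared with ZNF585A the place of the 5' end with most lists when FOXA3 counts once. The FOXA3 row, which is the same in the FL and dCTD lists, had −log10 p of 10.05 and 15.5, FOXA1FL 2.62 and 7.55, FOXA2FL 2.34 and 5.99, and FOXA2dCTD 2.96 and 3.13. FOXA1dCTD had no peak there. The site was strongest in FOXA3, and it also lies within 10 kb of ZNF548. At the 5' end of ZNF585A the values were 5.02 and 10.6 in FOXA1FL, 4.43 and 2.26 in FOXA2FL, 3.33 and 8.43 in FOXA2dCTD, and 5.32 and 13.6 in FOXA3dCTD. FOXA1dCTD was again without a peak, as was FOXA3FL. The paralog ZNF585B lies within 10 kb of the same site.

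ZNF507, which stands outside the clusters, had a body site 5.00 to 5.09 kb from its 5' end in 5 lists, both FOXA3 lists included. Its −log10 p values were 10.5 and 6.37 in the FOXA3 row, 5.02 and 4.23 in FOXA1FL, 3.23 and 12.6 in FOXA1dCTD, and 2.11 and 1.61 in FOXA2FL. A second site 28.4 kb from the 5' end was in the FOXA3 row at 8.88 and 12.9 and in FOXA2dCTD at 7.15 and 6.78. FOXA2 thus had the first site in its full-length list and the second in its dCTD list.

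ZNF841 had a body site 25.7 to 25.9 kb from its 5' end in all 4 FOXA1 and FOXA2 lists. It held the strongest peak of the set, in FOXA1dCTD with −log10 p of 10.4 and 26.6, against 5.87 and 3.32 in FOXA1FL. FOXA2dCTD had 5.87 and 11.5 there and FOXA2FL 3.82 and 2.60. For both factors the lower value of the pair was higher in the dCTD list, but p depends on depth, which was not used here. In ZNF331, an imprinted gene, a body site 56.6 to 57.0 kb from the 5' end had 7.67 and 12.7 in FOXA1dCTD, 4.15 and 7.67 in FOXA2FL and 2.82 and 6.91 in FOXA2dCTD. FOXA1FL and FOXA3 had no peak at it.

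ZNF69 had a body site that is also within 10 kb of ZNF700, at 7.75 and 9.65 in the FOXA3 row and 3.02 and 1.74 in FOXA2FL. ZNF700 lies within ZNF69 on the same strand, and this site is upstream of the 5' end of ZNF700. The FOXA3 summit was at 11923738 and ZNF700 starts at 11925107, so counting the site as body rests on the ZNF69 record. The remaining sites in more than 1 list were the 5' end of ZNF579, bodies of ZNF490, ZNF227 and ZNF536, and a site downstream of ZNF556. ZNF579, ZNF490 and ZNF227 had both FOXA2 lists and no other, with strengths (the lower value of the pair) from 1.59 to 3.91. Among sites in 1 list, a FOXA1FL peak in the body of ZNF765, 1.17 kb from its 5' end, had 4.35 and 4.48. FOXA2dCTD peaks at the 5' ends of ZNF700 and ZNF615, 295 and 221 bp upstream, had 2.80 and 2.36 and 3.52 and 3.19. At the 5' end of ZNF234, FOXA2FL had 1.59 and 1.74, close to the lowest strength of that list.

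**Figure D4:**
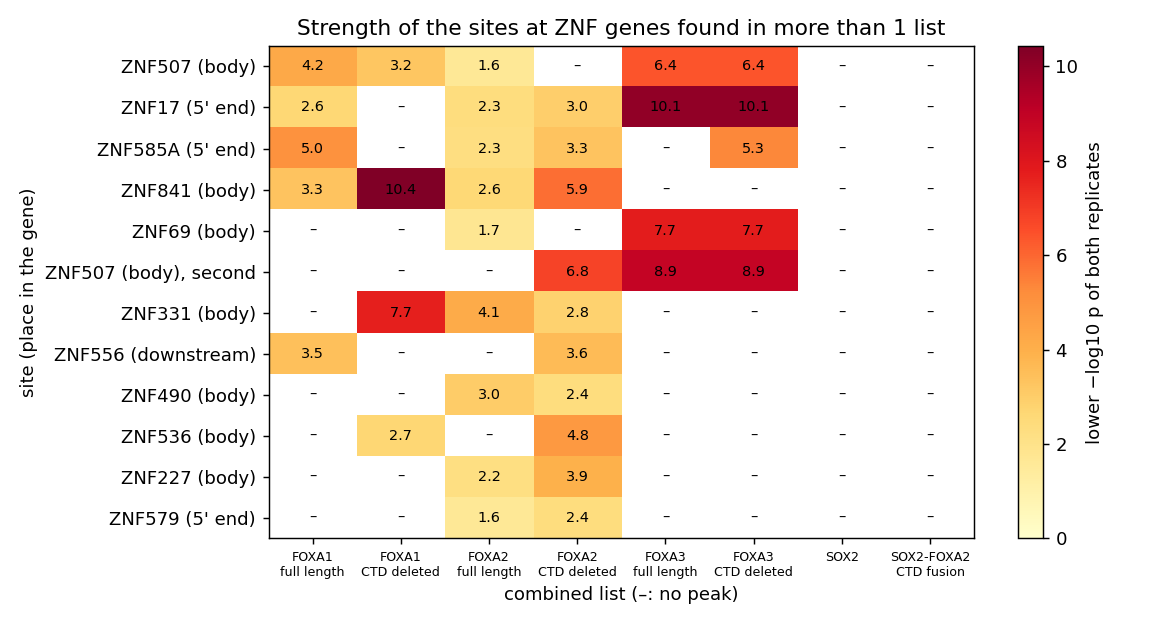
Strength, the lower −log10 p of both replicates, of the 12 sites at ZNF genes found in more than 1 combined list, by list, with a dash where a list has no peak. The highest values are 10.4 at ZNF841 in FOXA1dCTD and 10.05 at ZNF17 in the FOXA3 row, which both FOXA3 lists hold.

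ZNF536, a brain-expressed gene outside the clusters, was the ZNF gene with most sites. It is 488 kb long, against a median of 23.15 kb for ZNF genes, so its number of sites is no sign of preference. All 4 lay in its body, at 24.6, 273.9, 331 and 425 kb from its 5' end, and all 5 peaks were in dCTD lists. FOXA2dCTD had 3, FOXA1dCTD 2, and the site at 331 kb was in both, with −log10 p of 4.78 and 4.85 in FOXA2dCTD and 2.69 and 5.20 in FOXA1dCTD. Lists of full-length factors had none there. At other coding genes 53.2% of FOXA1dCTD peaks and 48.0% of FOXA2dCTD peaks were overlapped by a peak of the full-length list. Peaks found only in a dCTD list were thus common there too.

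ZNF274 had 1 peak, in FOXA1FL, 1025 bp upstream of its 5' end, with −log10 p of 4.39 and 4.10. Its summit thus lay just outside the zone counted as an end. The only SOX2-FOXA2CTD peak was 435 bp upstream of ZNF784 and also within 10 kb of ZNF865, with −log10 p of 2.41 and 3.29. ZNF808, whose loss is known to cause pancreatic agenesis, had no peak, nor had ZNF420 and ZNF254, which together with ZNF91 were the longest without one.

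The shares of peaks at ZNF genes found in both the FL and the dCTD list of a factor could not be told from those at other coding genes at these small numbers. Of 11 FOXA1FL peaks 2 were overlapped by a FOXA1dCTD peak (18.2%, 5.14% to 47.7%), against 36.7% at other coding genes. Of 7 FOXA1dCTD peaks 2 were shared (28.6%, 8.22% to 64.1%), against 53.2%. For FOXA2, 7 of 17 peaks were shared in either direction (41.2%, 21.6% to 64.0%), against 49.7% and 48.0%. All intervals contained the value at other coding genes. Of the 5 FOXA3dCTD peaks 4 were shared (80.0%), all as identical rows, against 77.4%. SOX2 and its fusion had none to share.

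Strength varied widely among the peaks at ZNF genes. The lower −log10 p of the pair ranged from 1.59 to 10.4 with a median of 3.08 over the 58 peaks, and 9 had an IDR of at most 0.01, of which 5 were FOXA3dCTD peaks. Ranked within its list (percentile 100 is the strongest), the median FOXA1FL peak at ZNF genes was at 27.1, against 49.7 at other coding genes. For FOXA1dCTD the percentiles were 20.6 and 45.8, for FOXA2FL 26.5 and 41.4, and for FOXA2dCTD 50.2 and 44.6. The FOXA3FL percentiles were 56.1 and 48.5 and those of FOXA3dCTD 50.5 and 39.6. The median rank was thus lower at ZNF genes in the first 3 lists and higher in FOXA2dCTD and both FOXA3 lists, a description of few peaks that carries no test. The 1 fusion peak was at 6.87, against 16.5. The lists end at different IDR limits, 0.200 for FOXA1FL, 0.0501 for FOXA1dCTD, 0.350 for FOXA2FL, 0.251 for FOXA2dCTD, 0.1 for FOXA3FL and SOX2, 0.01 for FOXA3dCTD and 0.912 for the fusion, which bears on any comparison of numbers between them.

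Longer lists of the first replicate alone were used for SOX2 and the fusion. There SOX2 had 2 peaks at ZNF genes, in the bodies of ZNF439 and ZNF582, and 14 at other coding genes, a ratio of 0.452 (0.0499 to 1.97). SOX2-FOXA2CTD had 14 against 105, a ratio of 0.422 (0.223 to 0.740), with 8 in bodies, 4 at ends and 2 in flanks. Of these, 1 was at a 3' end, against 7 at other coding genes. The fusion thus had a lower density at ZNF genes than at other coding genes in both of its lists. At the edge of the 10 kb window, the outermost peaks inside were at ZNF823 and ZNF792, 7.50 and 9.25 kb from the gene, and the nearest outside were at ZNF414 and ZNF358, at 11.9 and 12.5 kb.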

How the data were processed

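Peaks of Flag ChIP-seq were analysed as the authors deposited them, in 8 combined lists and 2 lists of a first replicate. The submitters' processing notes name hg38, FastQC 0.10.1, Trim Galore, Bowtie2 2.4.4, SAMtools 0.1.18, MACS2 and deepTools 2.4.1. Their settings, and how reads matching several places were treated, are not given in the sources used here. The deposited columns used were the −log10 p of each replicate, the −log10 IDR and the IDR score (a score of 830 marks an IDR of 0.01), and in the first-replicate lists the −log10 p. The fold ratio of the deposited lists was not used. Of 14 deposited files 4 were copies. The extract protocol gives the doxycycline dose in another unit, a conflict that was not resolved.

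Summits were counted in gene territories with Python 3.11.15, pandas 2.3.3, numpy 2.4.6 and scipy 1.17.1, and the counting was tested on simulated data. Territory near both gene sets counted as ZNF. Leaving FOXA3FL out of sums over lists was chosen after seeing the data. Density ratios carry exact (Clopper-Pearson) 95% intervals, shares Wilson intervals. No test between groups was possible with 1 combined list a group, so no p-value was computed. Genes were named by rule: the strongest 2 of each list, most sites, ends in most lists, 4 genes of known role, and the longest without a peak. Other sites in several lists, and the shared words, were picked after their values were seen. The members and lists were chosen with earlier results of these data known. Exons and introns were not determined, and genome and protein sequences were not used here, so the planned counts of finger and KRAB motifs were not made.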

Additional observations from a re-analysis of the deposited data

How the results depend on the processing

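Of 91 alternative values for 20 results, 78 stayed within their error, 13 moved beyond it and 0 reversed. Only a ratio whose main interval excluded 1 could count as reversed, and shares never could, so the count of 0 says little. The FOXA2dCTD ratio of ends to bodies went from 3.79 (0.997 to 12.6) to 0 in 1 setting and counted as moved. All 69 alternative density ratios were below 1. At an IDR of at most 0.01 the density ratio was 0 for FOXA1FL (0 against 15 peaks) and 0.633 for FOXA2dCTD (0.0675 to 2.97). With the 5000 strongest peaks it was 0 for FOXA1FL, 0.633 for FOXA1dCTD (0.0134 to 5.66) and 0 for SOX2-FOXA2CTD. FOXA2FL then had 0.198 (0.00472 to 1.27) and FOXA2dCTD 0.352 (0.00803 to 2.54). With the 5000 strongest peaks only FOXA1FL kept an interval below 1 (0 to 0.641), and at an IDR of at most 0.01 only FOXA1FL and FOXA1dCTD did. Against coding genes of the other chromosomes, an alternative chosen after seeing the data, the ratios were 0.0749 for FOXA1FL, 0.0381 for FOXA1dCTD, 0.0968 for FOXA2FL and 0.0842 for FOXA2dCTD. At an IDR of at most 0.01 the FOXA2dCTD ratio of ends to bodies was 0, and the shares of FOXA1dCTD peaks found in FOXA1FL and of FOXA2dCTD peaks found in FOXA2FL were 0. Without rows shared between the FOXA3 lists, the share of FOXA3dCTD peaks found in FOXA3FL was 0 and FOXA3FL had no peak left to give a density. FOXA2FL and SOX2-FOXA2CTD gave no value at an IDR of at most 0.01, and SOX2 none at all. Clusters only, and leaving out ZNF536, both added after seeing the data, moved no result beyond its interval, though clusters only gave 0.101 for FOXA1dCTD, 0.294 for FOXA3FL and 0.341 for FOXA3dCTD. No paired analysis was possible because each group has 1 combined list. Leaving out a replicate was possible only through the first-replicate lists. Unknown depth limits every comparison of −log10 p between lists.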
